A study of Mus musculus with 6 samples.

Results

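The genes of the proteasome were compared between whole kidneys of 3 control and 3 iNampt conditional knockout mice, all male and of strain C57BL/6J. RNA of each animal was hybridised to its own single-colour Agilent SurePrint G3 Mouse array. The product of Nampt sets the rate at which nicotinamide is recycled into NAD. The title of the study names the renal proximal tubule and diabetic nephropathy, and no diabetes or other treatment is named for these animals. The age of the mice, the Cre driver, the deleted exons and whether the controls carry a floxed allele or Cre are not given in the sources used here. Members were all genes whose symbol starts with Psma, Psmb, Psmc, Psmd or Psme and a digit, apart from Psmb8 and Psmb9. Probes named 43 such genes among 21154 genes in all. Of these, 41 were among the 15309 genes with a probe detected above background in every control or in every knockout, and only these were tested. Psma8 and Psmb11, the testis and thymus subunits, were not tested. The symbols follow the subcomplexes with exceptions. Psmc3ip and Psme3ip1 encode proteins that interact with a proteasome protein and are no subunits themselves, and Psme2b is a near-identical copy of Psme2, for which no probe was matched.

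The proteasome degrades proteins marked with ubiquitin. Its 20S core is a barrel of stacked rings, with alpha subunits forming the outer, gated rings and beta subunits forming the inner rings that hold the proteolytic sites. The 19S cap binds ubiquitin chains, removes them and unfolds the substrate. The cap has a base with a ring of ATPases next to the core and a lid with a deubiquitinase. Core and cap together are the 26S proteasome. Subunits are made in fixed proportions, and their genes can be induced together by the transcription factor Nfe2l1 when proteasome capacity falls short. In kidney tubules, which take up and reabsorb large amounts of protein, the proteasome works beside the lysosome in clearing proteins.

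Between 57.3% and 63.3% of the spots of an array were well above background, and none was saturated. The share was 58.1% and 57.3% in knockouts 2 and 3, and 61.5% or more on the other arrays. The normalised log2 signal used below is log2 of the processed intensity minus the array's own 75th percentile, and differences are knockout minus control in the same log2 units. Nampt was 2.67 ± 0.095 (SD, n = 3) in controls and 1.61 ± 0.17 (SD, n = 3) in knockouts, a log2 difference of -1.06 ± 0.099 (SE) with a limma adjusted p of 0.043. The adjusted p missed 0.05, at differences from -1.10 to -0.87, with quantile normalisation (-1.04, adjusted p 0.058), a block on slide row (-0.87, 0.073) or replicate number (-1.06, 0.089), and without control 1 (-1.01, 0.073), control 2 (-1.10, 0.17), control 3 (-1.07, 0.18), knockout 2 (-1.0, 0.17) or knockout 3 (-1.02, 0.18). Nampt signal was therefore lower but still present in the whole organ. All 9 proximal tubule markers examined were detected on every array, with a median difference of 0.019, and the sum of their linear signals ran from 1113 to 1234 in controls and from 1130 to 1168 in knockouts, in multiples of the array's 75th percentile. Markers of some other cells had median differences further from 0, and none of these genes passed. The groups did not overlap for 3 of 4 neutrophil, 1 of 6 adipocyte, 1 of 7 T and NK cell and 1 of 5 loop and distal tubule genes, all lower in knockouts. They also did not overlap for 6 of 10 macrophage and 1 of 6 collecting duct genes, all higher in knockouts. The macrophage genes had a median difference of 0.29, with all 10 above 0. The groups overlapped for all 4 erythroid and all 7 fibroblast genes. Over all genes tested, 19.5% had groups that did not overlap. The median difference was -1.75 for 4 neutrophil genes (3 below 0), -0.71 for 4 erythroid genes (3 below 0), -1.05 for 6 adipocyte genes (5 below 0), 0.26 for 7 fibroblast genes (6 above 0) and 0.34 for 7 T and NK cell genes (6 above 0), and the part of these cells in the members' values was not tested. The summed linear signal of the neutrophil genes ran from 139.9 to 141.6 in controls and from 135.5 to 139.8 in knockouts. Csf3r dominated this sum, at a log2 signal of 7.07 to 7.08 in controls and 7.07 to 7.11 in knockouts. The sum therefore hardly reflects S100a8 (-2.39), S100a9 (-2.34) and Retnlg (-1.16), the 3 neutrophil genes below 0. The erythroid sum ran from 184.8 to 246.2 in controls and from 97.2 to 211.0 in knockouts. For adipocyte genes it was 18.0 to 42.2 and 6.20 to 34.2, in the same order of groups. For fibroblast genes it was 31.7 to 56.4 and 45.8 to 58.2. For T and NK cell genes it was 4.90 to 5.79 and 5.31 to 5.46. The arrays shared 1 slide, on which the 3 controls and knockout 1 lay in the first row and knockouts 2 and 3 in the second. In whole-organ RNA, fewer cells of a type and less RNA per cell cannot be told apart.

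No proteasome gene passed the test between knockout and control kidneys, and the measured differences were small. None of the 41 members had a limma adjusted p under 0.05, where 26 of all 15309 genes tested did (0.170%). At an unadjusted p under 0.05 there was 1 of 41 members (2.44%), the lid gene Psmd7, against 12.8% of all genes. The members' differences ran from -0.16 for Psmd7 to 0.11 for Psmc3ip. The 95% intervals show how large a difference these data allow. Over all 41 members, the lowest bound was -0.28 (Psmd9, 1.22-fold lower) and the highest was 0.31 (Psmc3ip, 1.24-fold higher). The members varied little between animals of a group. Their median SD within groups was 0.068, against 0.091 over all genes tested.

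The differences lay mostly below 0, by little. The median over the 41 members was -0.037, against -0.0077 over all genes, and 33 members (80.5%) were below 0, against 52.9% of all genes. The median moved with the arrays used. It was -0.016 with quantile normalisation (27 members below 0) and -0.015 with normexp (26 below 0). With a block on slide row, where knockout 1 stands against the 3 controls, it was -0.086 (36 below 0). Without knockout 2 it was -0.061 (37 below 0), without knockout 1 it was -0.0053 (24 below 0), and without control 3 it was 0.0085 (19 below 0). Of the 31 subunits of the 26S proteasome, 27 lay below 0. The groups did not overlap for 5 members (12.2%), against 19.5% of all genes. All 3 knockouts lay below all 3 controls for Psmd7, Psmd5, Psmc5 and Psme3ip1, which is 4 of 41 where 10.5% of all genes did so. All 3 knockouts lay above all controls for Psme2b alone, where 9.04% of all genes did so. Both shares of non-overlapping members were near or below those of all genes. The count of 5 was 8 with quantile normalisation, with normexp and without control 1, 2 or 3, and 12 without knockout 2. The share of all genes was 21.2% with quantile normalisation and 19.9% with normexp. Groups of 2 animals overlap less often for all genes too. That share was 33.9%, 27.5% and 29.5% without control 1, 2 and 3, and 28.0% without knockout 2.

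**Figure D1:**
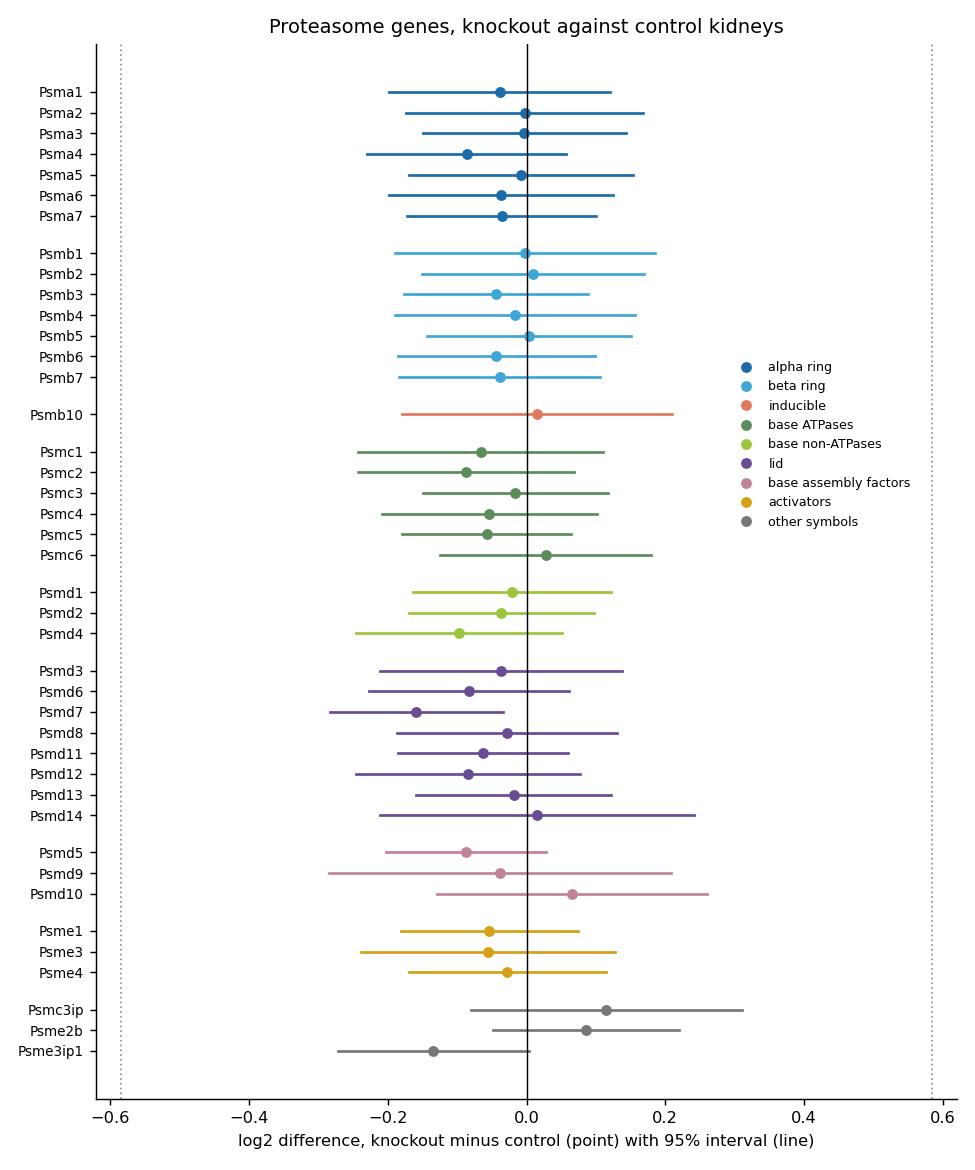
Log2 difference (knockout minus control, points) with its 95% interval from limma (lines) for the 41 members tested, coloured by subcomplex, n = 3 per group. The dotted lines mark a 1.5-fold difference in either direction. All intervals lie between -0.28 and 0.31, and that of Psmd7 is the only 1 that does not reach 0.

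The members moved together from animal to animal more than they differed between groups. The median over the 41 members of the deviation from the control mean was -0.032, -0.050 and 0.079 in controls 1, 2 and 3. In knockouts 1, 2 and 3 it was -0.086, 0.013 and -0.031. The highest array was thus a control and the lowest a knockout, while knockouts 2 and 3 lay above controls 1 and 2. Control 3 was the highest of the controls for 37 of 41 members (90.2%), against 49.3% of all genes tested. Knockout 1 was the lowest of the knockouts for 35 members (85.4%), against 41.2% of all genes. Both held for 33 members (80.5%), against 24.0% of all genes and 42.3% of the genes with the brightest probes, and for all 14 genes of the alpha and beta rings. The members that broke the order for control 3 were Psmb10, Psmc4, Psmc6 and Psme1. Those that broke it for knockout 1 were Psmb10, Psmc1, Psmd3, Psmd6, Psme1 and Psme4. Psmb10 and Psme1, an interferon-inducible subunit and activator, are in both lists. Psme2b, whose probes may also read Psme2, the partner of Psme1, kept the order for control 3 and for knockout 1.

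The same array order appeared, less strongly, in other genes of bright probes. Genes were divided into 5 classes by the mean signal of their probe, and 29 of the 41 members were in the brightest class, which holds 20% of all genes. Over the 3062 genes of that class the medians were -0.032, -0.033 and 0.067 in the controls and -0.042, -0.0021 and -0.024 in the knockouts. Control 3 was the highest control for 75.5% of that class and knockout 1 the lowest knockout for 52.2%. In the dimmest class control 3 had the lowest median of the controls, -0.0088. The part of probe brightness in the members' order was not tested. Scaling every array to the median of the members, an alternative chosen after seeing the data, centres the members on 0 by construction. Under it no member passed, and Psmd7 had a difference of -0.12 with an adjusted p of 0.37.

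**Figure D2:**
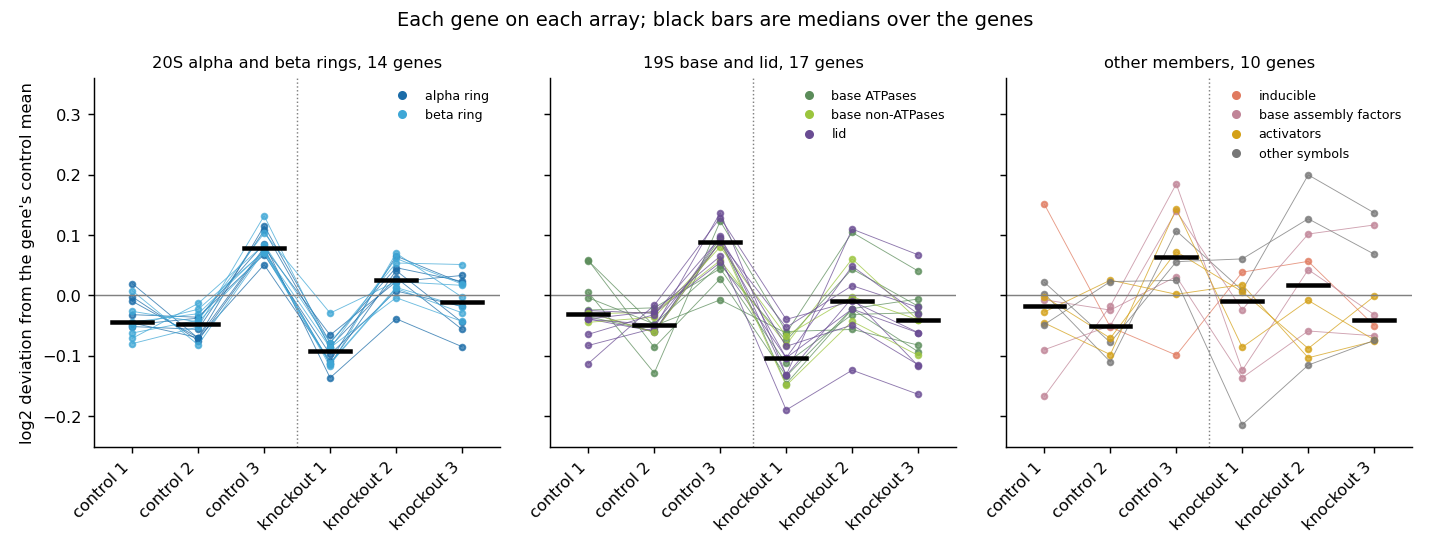
Log2 deviation from the gene's control mean (vertical axis) on each of the 6 arrays (horizontal axis) for the 14 genes of the 20S core, the 17 genes of the 19S base and lid and the 10 other members. Each coloured line is 1 gene, lines join the values of a gene and imply no order of the animals, and black bars are the medians over the genes of a panel. The core genes have their highest control value in control 3 and their lowest knockout value in knockout 1 in 14 of 14 cases.

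**Figure D3:**
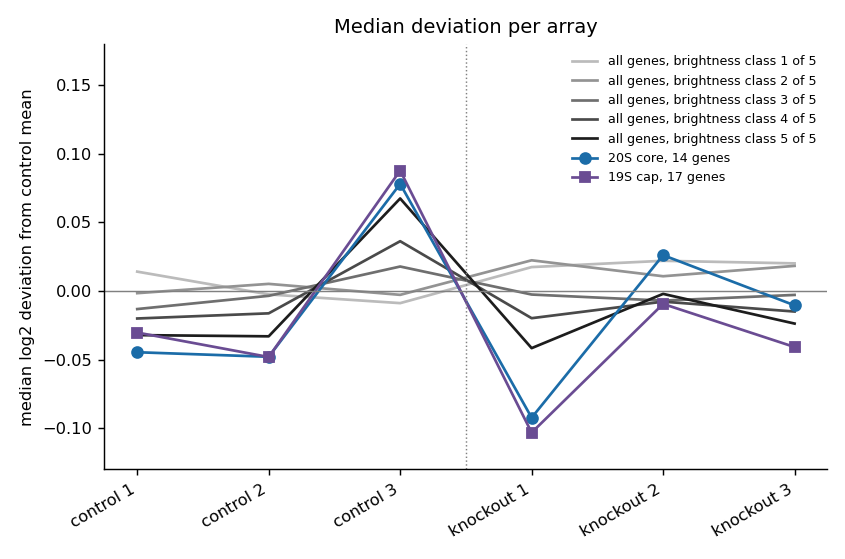
Median log2 deviation from the control mean per array, for the 14 genes of the 20S core, the 17 genes of the 19S cap and all genes tested in 5 classes of probe brightness (class 5 the brightest). The core and cap medians in control 3 are 0.078 and 0.088, and in knockout 1 they are -0.092 and -0.10. Lines imply no order of the animals.

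Because the members moved together across animals, their promoters were searched for letters of the factors known to act on proteasome genes. Nfe2l1 and Nfe2l2 with small Maf proteins bind antioxidant response elements, whose core is TGACNNNGC, and NF-Y binds CCAAT. RefSeq promoters (mouse build GRCm38.p6, from 250 bases before to 50 after the gene's start) matched 36 of the 43 members, and both strands were searched. The antioxidant response core was in 6 of 36 members (16.7%), against 13.99% of 27025 genes. These 6 were Psmb5, Psmb6, Psmc6, Psmd12, Psmd9 and Psme4, and their differences ran from -0.084 to 0.028. CCAAT was in 15 of 36 members (41.7%), against 41.1% of all genes. No member held both, and both shares are near those of all genes. A match is a description of letters, not a site shown to be bound. The 100 bases just before the start are shown for 2 subunits with the antioxidant response core (Psmb5 and Psmb6), for 2 with CCAAT (Psma2 and Psmb3), and for 2 whose groups did not overlap and whose promoter holds neither (Psmc5 and Psmd5). Capitals mark the matched letters, and each window reads 5′ to 3′ towards the start.
Psmb5, chr14:54617996-54618095, minus strand: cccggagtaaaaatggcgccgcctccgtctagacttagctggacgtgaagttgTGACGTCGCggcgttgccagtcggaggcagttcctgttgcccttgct
Psmb6, chr11:70525257-70525356, plus strand: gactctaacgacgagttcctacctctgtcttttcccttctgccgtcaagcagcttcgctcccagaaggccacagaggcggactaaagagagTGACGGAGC
Psma2, chr13:14613142-14613241, plus strand: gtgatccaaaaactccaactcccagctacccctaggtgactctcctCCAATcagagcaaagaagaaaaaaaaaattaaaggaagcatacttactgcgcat
Psmb3, chr11:97703334-97703433, plus strand: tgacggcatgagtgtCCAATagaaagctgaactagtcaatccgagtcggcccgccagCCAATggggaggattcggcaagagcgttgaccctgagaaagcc
Psmc5, chr11:106256085-106256184, plus strand: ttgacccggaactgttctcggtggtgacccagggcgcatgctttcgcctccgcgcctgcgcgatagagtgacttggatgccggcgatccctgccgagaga
Psmd5, chr2:34870963-34871062, minus strand: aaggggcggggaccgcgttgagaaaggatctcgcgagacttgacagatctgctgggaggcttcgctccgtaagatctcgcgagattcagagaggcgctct
The core in Psmb5 lies 47 to 39 bases before the start and that in Psmb6 lies 9 to 1 bases before it. Psmb3 holds CCAAT at 2 places, beginning 85 and 43 bases before the start.

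The alpha ring, which gates entry to the proteolytic chamber, had groups that overlapped in all 7 genes. The 7 differences were below 0, from -0.086 (Psma4) to -0.0029 (Psma2), with a median of -0.036 and adjusted p between 0.61 and 0.99. Psma4 had the largest of these differences. Its normalised log2 signal was 4.09, 4.10 and 4.22 in controls and 4.0, 4.10 and 4.05 in knockouts, a difference of -0.086 ± 0.058 (SE) with an adjusted p of 0.61. Control 3 stood above the other controls, and knockout 2 was level with the other 2 controls. Psma1 was 4.68, 4.61 and 4.76 in controls and 4.57, 4.73 and 4.64 in knockouts, with a difference of -0.039. Psma7 was 5.32, 5.31 and 5.41 in controls and 5.25, 5.35 and 5.33 in knockouts, with a difference of -0.036. Psma6 was 4.18, 4.17 and 4.33 in controls and 4.14, 4.26 and 4.17 in knockouts, with a difference of -0.037. In these 3 genes the groups overlapped, and knockout 1 had the lowest value of all. The direction was not the same under every scaling. With quantile normalisation Psma2, Psma3 and Psma5 turned to 0.024, 0.022 and 0.013, and with normexp Psma7 turned to 0.015.

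The beta ring, which carries the proteolytic sites, differed by no more than 0.044 in either direction. The differences ran from -0.044 (Psmb3) to 0.0089 (Psmb2), with a median of -0.017, 5 of 7 below 0 and adjusted p between 0.79 and 0.99. The 3 catalytic subunits are Psmb5, with chymotrypsin-like activity, Psmb6, with caspase-like activity, and Psmb7, with trypsin-like activity. Psmb5 was 7.16, 7.18 and 7.32 in controls and 7.19, 7.24 and 7.24 in knockouts, so that all knockouts lay inside the range of the controls. Its difference was 0.0035 ± 0.060 (SE), with a 95% interval from -0.14 to 0.15. Psmb6 was 6.33, 6.32 and 6.43 in controls and 6.25, 6.37 and 6.33 in knockouts, with a difference of -0.043 (95% interval -0.19 to 0.099). Psmb7 was 3.94, 3.95 and 4.05 in controls and 3.87, 3.99 and 3.96 in knockouts, with a difference of -0.039 (95% interval -0.18 to 0.11). For Psmb6 and Psmb7, knockout 1 lay below all controls and the other 2 knockouts lay among them. The structural subunit Psmb3 was 5.85, 5.88 and 5.97 in controls and 5.82, 5.90 and 5.86 in knockouts, the same arrangement. Psmb4, a structural subunit, was 6.13, 6.04 and 6.19 in controls and 6.0, 6.19 and 6.11 in knockouts, a difference of -0.017 that was 0.0090 with quantile normalisation. Psmb1 (-0.0024) and Psmb2 (0.0089), the remaining members, were nearest to 0 together with Psmb5.

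Psmb10 replaces Psmb7 in the immunoproteasome, the form induced by interferon in immune and inflamed tissue. Its signal was 3.60, 3.40 and 3.35 in controls and 3.49, 3.51 and 3.40 in knockouts, a difference of 0.015 ± 0.079 (SE) with an adjusted p of 0.96. Control 1 was the highest array, and all knockouts lay between control 1 and control 3. The other inducible catalytic subunits, which the choice of members leaves out, had the same highest control. Psmb8 was 1.06, 0.66 and 0.70 in controls and 1.0, 0.91 and 0.73 in knockouts, with a difference of 0.078 and an adjusted p of 0.85. Psmb9 was 1.18, 0.90 and 0.96 in controls and 1.11, 1.26 and 1.1 in knockouts, with a difference of 0.14 and an adjusted p of 0.58. Macrophage markers, 10 genes all detected on every array, also had their highest control median in control 1. So did the T and NK cell (0.28), neutrophil (0.23), erythroid (0.23), adipocyte (0.47) and fibroblast (0.36) markers. The endothelial, podocyte, tubule and collecting duct markers did not. The macrophage medians were 0.25, -0.083 and -0.16 in controls and 0.28, 0.41 and 0.24 in knockouts, and all 10 genes had a difference above 0. Their groups did not overlap for 6 of 10, against 19.5% of all genes tested. Their summed linear signal was 47.3 to 55.9 in controls and 62.5 to 67.6 in knockouts, in multiples of the array's 75th percentile. The part of these cells in the values of Psmb8, Psmb9 and Psmb10 was not tested.

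The ATPases of the base, which unfold substrates and thread them into the core, had differences from -0.087 (Psmc2) to 0.028 (Psmc6). The median was -0.056, 5 of 6 were below 0, and adjusted p lay between 0.64 and 0.93. Psmc2 was 5.40, 5.37 and 5.52 in controls and 5.28, 5.41 and 5.34 in knockouts, a difference of -0.087 ± 0.063 (SE). Psmc5 was 4.20, 4.20 and 4.26 in controls and 4.11, 4.19 and 4.19 in knockouts, a difference of -0.057 ± 0.050 (SE). Its groups did not overlap, but the gap between the lowest control and the highest knockout was only 0.0043. Psmc1, on chromosome 12, was 6.09, 5.96 and 6.21 in controls and 6.02, 6.03 and 6.0 in knockouts, with the knockouts close together inside the controls' range. Psmc4 was 4.07, 3.93 and 4.04 in controls and 3.88, 3.99 and 4.01 in knockouts. Its lowest and its highest array were knockout 1 and control 1. Psmc3 had a difference of -0.016 and Psmc6 the only difference above 0.

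The 3 other subunits of the base had differences of -0.097 (Psmd4), -0.036 (Psmd2) and -0.021 (Psmd1). Psmd4 is a receptor for ubiquitin chains, and Psmd1 and Psmd2 are the large scaffold subunits of the base. Psmd4 was 5.56, 5.53 and 5.68 in controls and 5.44, 5.55 and 5.49 in knockouts, a difference of -0.097 ± 0.061 (SE) with an adjusted p of 0.58. Only knockout 2 reached the range of the controls. Psmd2 was 4.51, 4.52 and 4.64 in controls and 4.49, 4.56 and 4.52 in knockouts. Psmd1 was 4.64, 4.64 and 4.72 in controls and 4.59, 4.73 and 4.63 in knockouts, so that knockout 2 was as high as control 3.

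The lid held the member with the largest difference, Psmd7, the partner of the deubiquitinase Psmd14. Its normalised log2 signal was 2.90, 2.91 and 3.0 in controls and 2.74, 2.81 and 2.77 in knockouts. All knockouts lay below all controls, by a gap of 0.085. The means were 2.93 ± 0.057 (SD, n = 3) and 2.78 ± 0.033 (SD, n = 3), a difference of -0.16 ± 0.051 (SE) with a 95% interval from -0.28 to -0.034. limma's unadjusted p was 0.021 and the adjusted p 0.30, so the difference did not pass. Leaving out each array in turn gave -0.18 to -0.13, and within the first slide row, knockout 1 against the 3 controls, it was -0.19 (adjusted p 0.49).

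The other lid genes did not separate. Psmd14, which cuts ubiquitin chains off the substrate, was 1.67, 1.70 and 1.89 in controls and 1.62, 1.86 and 1.82 in knockouts, a difference of 0.015 ± 0.092 (SE). It had the widest interval of the 26S subunits, from -0.21 to 0.24. Psmd6 was 3.90, 3.93 and 4.06 in controls and 3.88, 3.91 and 3.85 in knockouts, a difference of -0.083. Only knockout 2 lay within the range of the controls. Psmd12 was 4.83, 4.81 and 4.97 in controls and 4.74, 4.87 and 4.76 in knockouts, a difference of -0.084. Psmd11 was 2.57, 2.57 and 2.65 in controls and 2.49, 2.58 and 2.54 in knockouts, a difference of -0.062. In both genes knockout 2 lay among the controls and the other knockouts below them. Psmd3 (-0.037), Psmd8 (-0.028) and Psmd13 (-0.019) completed the lid, which had a median of -0.050 with 7 of 8 genes below 0.

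Psmd5, Psmd9 and Psmd10 are chaperones that help to assemble the base and leave the finished complex. Psmd5 was 2.26, 2.24 and 2.30 in controls and 2.13, 2.21 and 2.20 in knockouts, a difference of -0.087 ± 0.047 (SE) with an adjusted p of 0.51. The groups did not overlap, with a gap of 0.035. Psmd9 was 1.25, 1.40 and 1.60 in controls and 1.29, 1.46 and 1.39 in knockouts, a difference of -0.038 with the largest SE of all members, 0.10. Psmd10, also known as gankyrin, was 1.42, 1.46 and 1.65 in controls and 1.49, 1.61 and 1.63 in knockouts, a difference of 0.065. The controls of both genes spanned a wider range than the knockouts.

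The activators cap the core in place of the 19S particle. Psme1, a subunit of the interferon-inducible PA28 ring, was 3.56, 3.62 and 3.59 in controls and 3.61, 3.49 and 3.52 in knockouts, a difference of -0.054 ± 0.052 (SE) with an adjusted p of 0.73. Knockout 1 lay among the controls and the other 2 knockouts below them. Psme3, the nuclear activator, was 2.05, 2.0 and 2.24 in controls and 2.01, 2.09 and 2.02 in knockouts, a difference of -0.056. Psme4, the large activator PA200, was 0.95, 0.88 and 1.03 in controls and 0.96, 0.87 and 0.95 in knockouts, a difference of -0.028. The groups of all 3 activators overlapped.

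The 3 other symbols that the choice of members takes had the 2 largest positive differences and the second lowest. The probes of Psme2b may also take up transcripts of Psme2, the partner of Psme1, so its identity is uncertain. Psme2b was 4.88, 4.79 and 4.92 in controls and 4.92, 4.99 and 4.93 in knockouts, a difference of 0.085 ± 0.055 (SE) with an adjusted p of 0.59. Its groups were separated by a gap of only 0.0046. Psmc3ip, a factor of meiotic recombination, was -1.45, -1.57 and -1.35 in controls and -1.45, -1.26 and -1.32 in knockouts, a difference of 0.11 ± 0.080 (SE). Psme3ip1, a partner of Psme3, was 1.76, 1.83 and 1.84 in controls and 1.60, 1.70 and 1.74 in knockouts, a difference of -0.13 ± 0.056 (SE). Its groups did not overlap, by a gap of 0.026, and its adjusted p was 0.40.

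**Figure D4:**
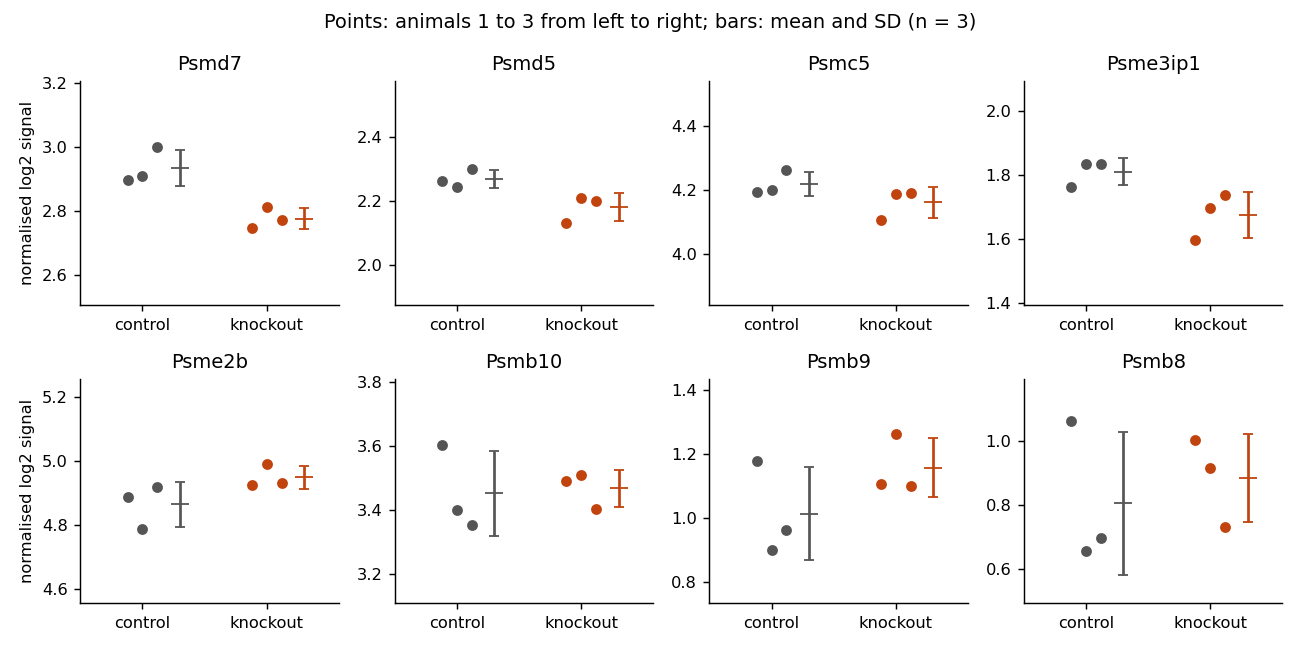
Normalised log2 signal (vertical axis, of equal span but different start in each panel) in control and knockout kidneys for the 5 members whose groups did not overlap and for Psmb10, Psmb9 and Psmb8. Points are the animals, and bars are the mean and SD (n = 3). The gap between the groups is 0.085 for Psmd7, 0.035 for Psmd5 and 0.0043 for Psmc5, and control 1 is the highest control for Psmb10, Psmb9 and Psmb8.

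For 10 members more than 1 probe was kept, which gives a second reading of the same animals. Of the 11 other probes, 9 had a difference of the same sign as the probe used. The second probe of Psmd12 was 1.38, 1.27 and 1.39 in controls and 1.23, 1.20 and 1.21 in knockouts, so that its groups did not overlap where those of the first probe did. Psmd9 was the clearest disagreement, with 0.19 for its second probe against -0.038. That probe was 0.018, 0.14 and 0.29 in controls and 0.38, 0.22 and 0.41 in knockouts. The second probe of Psmb5 gave -0.021 against 0.0035, both far smaller than their SE. Of 3 probes for Psme2b, the other 2 gave 0.046 and 0.023 with groups that overlapped.

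Nampt lies on chromosome 12, where 3 members also lie, Psma3, Psma6 and Psmc1. Their differences were -0.0032, -0.037 and -0.066, with groups that overlapped and adjusted p from 0.76 to 0.99. This is within the range of the members on other chromosomes.

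Genes that act around the proteasome were read from lists that hold no member, and no gene of any list passed. In the list of assembly and related factors, 4 of 6 tested were below 0 (median -0.053). In that of proteasome-associated proteins, 8 of 10 tested were below 0 (median -0.051), where 52.9% of all genes tested were. In the first, Psmg4 (-0.11), Psmg3 (-0.12), Akirin2 (-0.087) and Pomp (-0.019) had the smallest p. Pomp, the maturation factor of the core, was 4.78, 4.70 and 4.86 in controls and 4.73, 4.84 and 4.71 in knockouts, within the range of each other. The second list includes Adrm1 and Sem1, which are subunits of the cap under other symbols. Adrm1, a ubiquitin receptor that sits on Psmd1, was 3.97, 3.98 and 4.01 in controls and 3.79, 3.83 and 3.80 in knockouts. The groups did not overlap, and the difference was -0.18 ± 0.043 (SE) with an adjusted p of 0.22. Sem1 had a difference of -0.051. Ecpas (-0.13), Usp14 (-0.056) and Txnl1 (-0.075) came next in p after Adrm1.

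The list of regulators held the factors that switch on proteasome genes and the enzymes that process them. Of 15 tested, 10 were below 0 with a median of -0.052. The groups did not overlap for 5 of the 15, against 19.5% of all genes tested. These were Ddi2, Syvn1, Sel1l and Ngly1, lower in knockouts, and Maff, higher in knockouts. Ngly1 had a difference of -0.13 with an adjusted p of 0.42. Nfe2l1, the factor itself, was -0.85, -0.81 and -0.88 in controls and -0.81, -1.02 and -0.99 in knockouts, a difference of -0.093 ± 0.070 (SE) with an adjusted p of 0.65. Ddi2, the protease that cleaves and activates the Nfe2l1 protein, was 1.11, 1.25 and 1.18 in controls and 0.82, 0.87 and 0.91 in knockouts. All knockouts lay below all controls, and the difference was -0.31 ± 0.056 (SE) with an adjusted p of 0.14. Syvn1, a ubiquitin ligase of the endoplasmic reticulum, was 5.09, 5.09 and 5.17 in controls and 4.58, 4.80 and 4.88 in knockouts, a difference of -0.36 ± 0.088 (SE) with an adjusted p of 0.22. Its partner Sel1l had a difference of -0.21 with an adjusted p of 0.38. In both genes all knockouts lay below all controls. Maff, a small Maf partner of Nfe2l1, was -2.13, -2.31 and -2.31 in controls and -2.10, -1.84 and -1.78 in knockouts, a difference of 0.34 with an adjusted p of 0.28, and its groups did not overlap.

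The ubiquitin list, of ubiquitin genes, activating enzymes and shuttles, had 10 of 13 genes below 0 and a median of -0.031. The shuttle factors Rad23b (-0.13), Ubqln4 (-0.11) and Ubqln1 (-0.12) and the activating enzyme Uba6 (-0.10) had the smallest p, with adjusted p from 0.40 to 0.58. Of the antigen processing genes, which include Psmb8 and Psmb9, 10 of 11 lay above 0, and the median was 0.078. The groups overlapped for all 10 of these. Over all genes tested, 52.9% were below 0. Nlrc5, an activator of class I antigen presentation genes, had a difference of 0.35 (adjusted p 0.43). The peptide transporter gene Tap1 had 0.25 (adjusted p 0.57). Erap1, which trims peptides, was the exception at -0.10 (adjusted p 0.47). It was the only gene of this list whose groups did not overlap. The list's medians per array were 0.16, -0.098 and -0.071 in controls and 0.11, 0.11 and 0.038 in knockouts, so control 1 was the highest of all. Among the controls, control 1 was also the highest for the macrophage, T and NK cell, neutrophil, erythroid, adipocyte and fibroblast markers. The part of immune cells in this list was not tested.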

How the data were processed

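The authors' software was Agilent Feature Extraction, version 10.7.1.1, per the submitters' processing notes, and the deposited intensity is a linear, background-subtracted signal per spot, per the file headers. The authors' deposited table holds a ratio, each array's signal over a constant, and was an alternative. From 92 to 151 spots per array with an outlier flag were dropped, repeat spots averaged, log2 taken and each array's 75th percentile subtracted. Probes (32948 kept) were named by unversioned accession through RefSeq of GRCm38.p6, used for names only since the arrays' positions are mm9, and 27655 of 55681 probes had no name. The probe of highest mean stood for a gene. limma 3.58.1 (R 4.3.3, lmFit and eBayes, group only) compared the groups with Benjamini-Hochberg adjustment over 15309 genes, and was tested on simulated data. An exact permutation test of 3 against 3 cannot go below 0.1. Python 3.11.15, pandas 2.3.3 and matplotlib 3.10.9 were used. Alternatives were quantile normalisation, the median of detected probes, normexp with offset 50 on median spot signals, the authors' ratios, no filter, the mean of a gene's probes, a block on slide row or replicate number, and omitting each array once. In each subcomplex and list the up to 4 members of smallest p were named, with the catalytic subunits and activators. The members and lists were chosen with earlier results of these data known.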

Additional observations from a re-analysis of the deposited data

Results flagged for a closer look

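Psma8, the testis form of an alpha subunit, was not tested because it was well above background on 1 of 6 arrays. On that array, knockout 2, its normalised log2 signal was -3.75, against -7.69 to -7.53 in controls and -7.43 and -6.79 in the other knockouts, where it was not well above background. It is listed because a signal appeared in data outside the comparison.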

How the results depend on the processing

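No member passed under any alternative, and the lowest adjusted p of a member in any of them was 0.19. Over the 41 members and the alternatives named with the methods, 63 of 574 differences changed sign, and 18 members kept their sign in all, Psmd7, Psmd5, Psmc5, Psme2b and Psme3ip1 among them. The count of all genes that passed, 26, was 11 with quantile normalisation, 77 without the filter on dim probes and 16 with a block on slide row. Omitting each array once gave 0 to 57 (0 without control 2 or control 3, 1 without knockout 2 or knockout 3, 57 without knockout 1). At an unadjusted p under 0.05, limma gave 1436 and 1550 genes without control 2 and control 3. The members whose groups did not overlap, 5, were 8 with quantile normalisation, 8 with normexp and 5 to 12 when each array was left out. With quantile normalisation the sign turned for Psma2 0.024, Psma3 0.022, Psma5 0.013, Psmb1 0.026, Psmb4 0.0090 and Psmc3 0.0042. With normexp and quantile normalisation the sign turned for Psma2 0.038, Psma5 0.026, Psma7 0.015, Psmb1 0.024, Psmb4 0.010, Psmd1 0.0023 and Psmd8 0.0047. With probes of a gene averaged, the sign turned for Psmb5 -0.0088 and Psmd9 0.075. With a block on slide row, where the difference rests on knockout 1 against the 3 controls, the sign turned for Psmb2 -0.078, Psmb5 -0.029, Psmc6 -0.062, Psmd10 -0.023, Psmd14 -0.13, Psme1 0.018 and Psme4 0.0062. Scaling arrays to the members' median, chosen after seeing the data, adds 1 shift to every gene, so signs turned by construction, for Psma2 0.035, Psma3 0.035, Psma5 0.030, Psma6 0.00091, Psma7 0.0021, Psmb1 0.036, Psmb4 0.021, Psmc3 0.022, Psmd1 0.018, Psmd13 0.019, Psmd2 0.0017, Psmd3 0.0012, Psmd8 0.0096, Psmd9 0.00043 and Psme4 0.010. Leaving out each array in turn, the sign turned for 20 members, with ranges of Psma2 -0.038 to 0.055, Psma3 -0.038 to 0.036, Psma5 -0.044 to 0.043, Psma6 -0.070 to 0.017, Psmb1 -0.042 to 0.064, Psmb10 -0.034 to 0.091, Psmb2 -0.027 to 0.052, Psmb4 -0.060 to 0.034, Psmb5 -0.028 to 0.055, Psmc3 -0.046 to 0.013. The ranges of the rest were Psmc6 -0.011 to 0.072, Psmd1 -0.061 to 0.0099, Psmd13 -0.049 to 0.025, Psmd14 -0.032 to 0.089, Psmd2 -0.059 to 0.0038, Psmd3 -0.093 to 0.028, Psmd8 -0.067 to 0.015, Psmd9 -0.12 to 0.055, Psme3 -0.10 to 0.016 and Psme4 -0.063 to 0.0086. The causes were not tested. With 3 arrays per group, the median SE of a member's difference was 0.061, larger than most of these values.

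The labels name no pairing of the animals by replicate number, and same-numbered deviations correlated between -0.096 and 0.10. With so few arrays these correlations cannot settle whether the animals were paired. With replicate number entered as a block, 0 of all genes passed in limma (1636 at an unadjusted p under 0.05), and Psmd7 kept -0.16 with an adjusted p of 0.48.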
